A study of Mus musculus with 60 samples.

Results

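The collagen chain genes were taken as the rows of the deposited table whose Ensembl identifier belongs to a protein-coding gene with a symbol made of Col, a number, the letter a and a number. This rule gave 44 of the 27238 genes in the table. They comprised 11 chains of fibrillar collagens, 6 of type IV, 6 of type VI, 9 of collagens that attach to fibrils (the fibril-associated, or FACIT, collagens), 3 of types VIII and X, 2 of types XV and XVIII, 4 with a transmembrane domain, and Col7a1, Col26a1 and Col28a1. No measured value entered this choice, and each chain is named at least once below.

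Collagens are the main proteins of the extracellular matrix. Their chains assemble by threes into a helix in the endoplasmic reticulum, where prolines and lysines are hydroxylated, and the secreted molecules are trimmed and crosslinked outside the cell. Fibrillar collagens (types I, II, III, V and XI among them) give connective tissue its tensile strength and are the typical product of fibroblasts, while type IV collagen forms the sheet of basement membranes, which surround the granulosa layer of the follicle and are laid down by the blastocyst's first endoderm.

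The 60 libraries fell into 20 groups of 3. In vivo embryos came from superovulated C57BL/6 females mated with DBA2 males. NTC embryos were rebuilt from enucleated BDF1 oocytes that received a cumulus cell (CC) nucleus, and NTM embryos from such oocytes that received the nucleus of a mouse embryonic fibroblast (MEF). Per the methods of the study, the CCs came from superovulated BDF1 females, the MEFs were serum-starved cultures of BDF1 fetuses, and both kinds of NT embryo were activated with strontium and cytochalasin B, exposed to the deacetylase inhibitor Scriptaid and cultured in vitro, which the in vivo embryos were not. Each embryo library was made from a single embryo at 1 of 6 stages, from the 1-cell embryo with its pronuclei through 2, 4 and 8 cells to the morula and the blastula, and the labels state that every stage was collected in 3 or more independent experiments without tying a library to an experiment. In vivo and NT embryos therefore differed in culture and drug exposure as well as in the origin of the nucleus, and these cannot be told apart. Expression was given as RPKM (reads per kilobase of exon, scaled to the reads of the library).

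Libraries held 5294166 to 47830123 reads on genes (median 15451426), with at most 26281511 in an embryo library and at least 31558142 in a donor library. In the 3 libraries of in vivo blastulas 7730 to 7808 genes exceeded 0, fewer than the 8997 to 14582 of every other embryo library, and replicate 1 of the in vivo 1-cell group had 9491 against 12187 and 12593 in replicates 2 and 3. Of 14 fibroblast markers, all 14 averaged 0.5 RPKM or more in MEFs and 3 did in CCs (summed 5285 to 7330 against 72.6 to 161 RPKM). Of 14 cumulus markers, 11 did so in CCs, with Has2, Pgr and Areg at 0, and 7 in MEFs (summed 724 to 1546 against 519 to 1238 RPKM), so that the cumulus list parted the donor cells less sharply, with CC replicate 1 lowest. The 9 oocyte markers summed to 2213 to 4602 RPKM in in vivo 1-cell embryos and to 0 in in vivo blastulas, and all 8 trophectoderm and all 7 epiblast markers reached that level in in vivo blastulas, with 4 of 8 for primitive endoderm. Blood and endothelial markers summed to at most 18.3 RPKM in a CC library, led by Cdh5. In in vivo 4-cell embryos, with which NT 4-cell embryos are compared below, they summed to 63.7, 49.4 and 65.4 RPKM in replicates 1 to 3. The highest sum of any other embryo library was 8.42 RPKM, and the source of the 4-cell values was not tested.

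In the donor cells the 44 chains made up very different shares of the transcriptome, and in embryos their sums were low. Their summed RPKM was 5666, 7587 and 8296 in the MEF libraries, or 4.92 to 7.13% of all reads on genes. In the CC libraries it was 95.8, 257 and 353, or 0.0680 to 0.239% of reads. In the 54 embryo libraries it lay between 0.0470 and 17.8. The MEF sums were thus above every CC sum, and the CC sums were above every embryo sum.

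**Figure D1:**
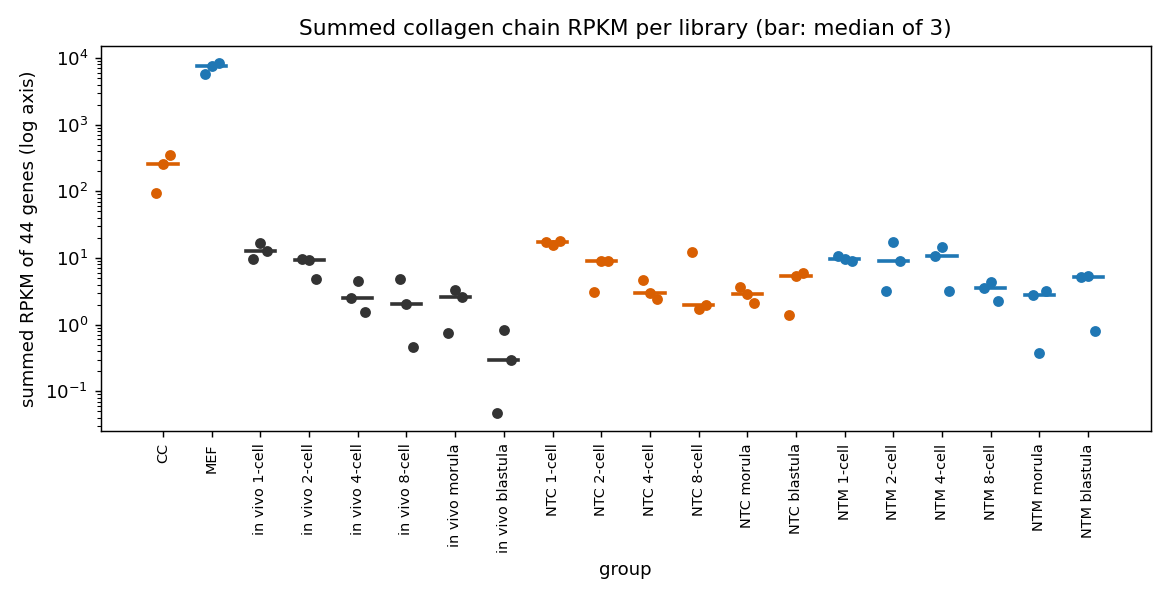
Summed RPKM of the 44 collagen chain genes on a log axis, by group, with points for libraries and bars for the median of 3. The MEF libraries lie at 5666 to 8296, the CC libraries at 95.8 to 353, and the embryo libraries from 17.8 at the 1-cell stage down to 0.0470 in an in vivo blastula.

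The MEF libraries were dominated by the fibrillar chains. These held 87.2 to 88.4% of the summed collagen RPKM in MEFs against 1.09 to 3.72% in CCs. In CCs the type IV chains held 67.2 to 78.1% and the chains of types XV and XVIII 15.2 to 27.9%, where type IV held 0.850 to 1.57% in MEFs. The ranges of the donor cells did not overlap for either class. Because the samples are bulk RNA, fewer cells of a type and less RNA per cell cannot be told apart.

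Col1a1 and Col1a2 encode the chains of type I collagen, the main fibril of skin, tendon and bone. Col1a1 stood at 2140, 2980 and 3335 RPKM in MEF replicates 1, 2 and 3 and at 1.51, 1.17 and 1.26 in the CC replicates. Col1a2 stood at 620, 902 and 988 RPKM in MEFs and at 0.467, 0.372 and 0.428 in CCs. The CC values rest on 371, 243 and 261 reads of Col1a1, so they are low but counted. Col3a1, the chain of type III collagen, stood at 1558, 1971 and 1931 RPKM in MEFs and at 1.13, 0.873 and 0.849 in CCs. No donor library of either kind came near the other.

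For Col5a1, a type V chain that sits inside type I fibrils and limits their width, the MEF values were 375, 574 and 773 RPKM and the CC values 0.281, 0.238 and 4.48. Its partner Col5a2 read 231, 257 and 292 RPKM in MEFs and averaged 0.169 in CCs. Among the chains of type VI collagen, a beaded filament around cells, Col6a1 read 122, 206 and 205 RPKM in MEFs and 0.104, 8.50 and 11.2 in CCs, so that 1 CC library was far below the other CC libraries. That library, replicate 1, was also the one with the lowest cumulus marker sum and with a blood and endothelial marker sum of 0.609 RPKM against 13.2 and 18.3, and the part of this in the Col6a1 value was not tested.

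With limma on log2(RPKM + 1), 24 chains could be tested between MEFs and CCs and 11 were called at an adjusted p under 0.05 and a log2 difference of at least 1. All 11 were higher in MEFs. Of all 11978 genes tested 6.29% were called, and 3.99% were called higher in MEFs. The median log2 difference, MEFs minus CCs, was 2.84 over the 24 chains and 0.19 over all genes. Chains were tested at a mean of at least 0.5 RPKM over both groups, a level that 25 averaged in MEFs and 9 in CCs. Many thus entered through MEFs only, which favours this direction in the calls and in the median. The log2 difference was 10.23 (SE 0.34) for Col1a1, 9.86 (SE 0.35) for Col3a1, 9.17 (SE 0.41) for Col1a2 and 8.07 (SE 0.65) for Col5a1, with adjusted p of 3.44e-06, 3.69e-06, 9.78e-06 and 0.000198. The other chains called were Col5a2 (7.80), Col6a2 (6.98), Col12a1 (6.50), Col6a3 (6.35), Col8a1 (5.68), Col6a1 (5.11) and Col16a1 (4.39). The call on Col6a1 (adjusted p 0.00934, limma) was lost when any 1 of the MEF libraries was left out, with a pseudocount of 0.1 and without a filter on low values, and its CC values scattered widely.

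**Figure D2:**
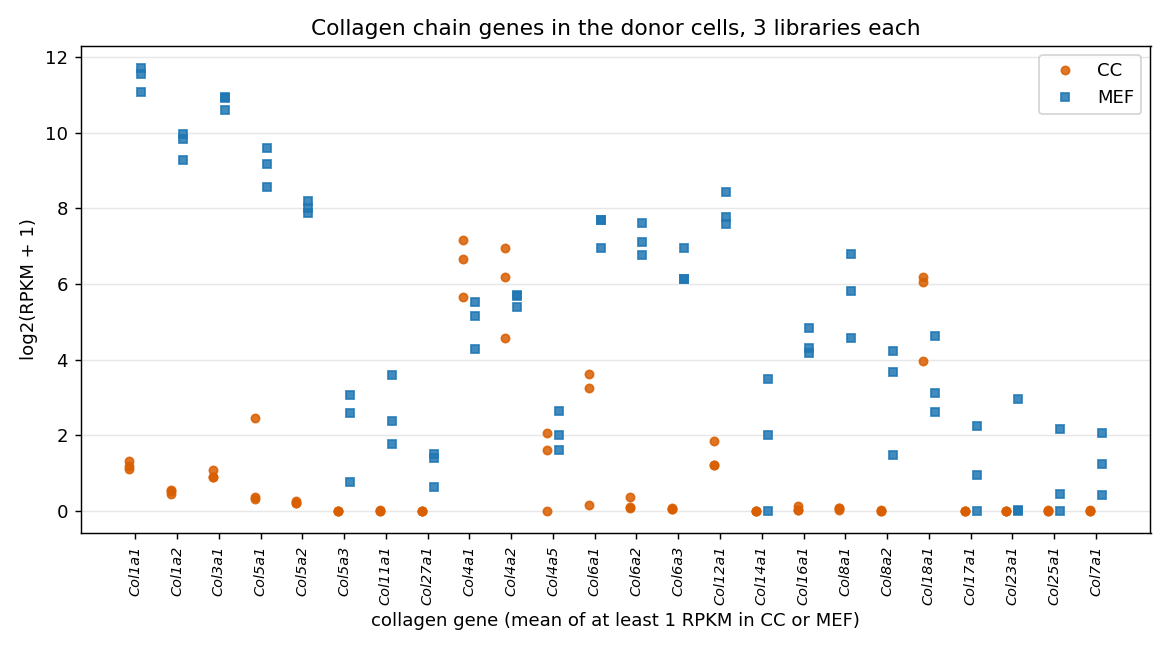
Log2(RPKM + 1), on the vertical axis, of the chains with a mean of at least 1 RPKM in CCs or MEFs, with each point 1 of the 3 libraries of each cell. Col1a1, Col3a1 and Col1a2 stand at 620 to 3335 RPKM in MEFs and at 0.372 to 1.51 in CCs, while for Col4a1, Col4a2 and Col18a1 the CC points lie among or above the MEF points.

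Expressed per gene, the mean level in CCs was 0.0466% of that in MEFs for Col1a1, 0.0505% for Col1a2 and 0.0523% for Col3a1. The ratio of Col1a1 to Col1a2 was 2.94 to 3.24 in CC libraries and 3.30 to 3.45 in MEF libraries, and that of Col1a1 to Col3a1 was 1.34 to 1.48 and 1.37 to 1.73. For other chains of MEFs the CC share was not the same. It was 0.0459% for Col6a3, 0.291% for Col5a1, 0.696% for Col12a1, which encodes a chain on the surface of type I fibrils, and 3.72% for Col6a1. These shares are descriptions and were not tested.

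Col4a1, Col4a2 and Col18a1 did not share this direction. Col4a1 read 49.0, 100.3 and 142 RPKM in CCs and 34.4, 18.3 and 44.6 in MEFs, with every CC library above every MEF library, where 24.5% of all genes tested did not overlap between the donor cells. Col4a2, its partner in the common basement membrane trimer, read 22.6, 72.1 and 123 RPKM in CCs and 51.5, 40.8 and 50.5 in MEFs, with overlap. Col18a1, the source of endostatin, read 14.5, 71.6 and 65.0 RPKM in CCs and 5.15, 7.70 and 23.4 in MEFs, again with overlap. None was called. The log2 differences, MEFs minus CCs, were -1.51 (SE 0.53, adjusted p 0.163 with limma) for Col4a1, -0.31 (SE 0.60, adjusted p 0.799) for Col4a2 and -1.94 (SE 0.78, adjusted p 0.230) for Col18a1. In a single fit over all 20 groups, which called 28.2% of all genes here, Col4a1 and Col18a1 were called. The ratio of Col4a1 to Col4a2 was 1.15 to 2.17 in CCs and 0.449 to 0.884 in MEFs, without overlap and not tested.

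Other chains were seen mainly in MEFs but were not called. Col8a2, a short-chain collagen, averaged 10.4 RPKM, Col11a1 5.86, Col14a1 4.39, Col5a3 4.36, Col23a1 2.26, Col7a1, the anchoring fibril of skin, 1.61, Col17a1 1.53, Col27a1 1.32 and Col25a1 1.27. Their CC means were between 0 and 0.00516 RPKM. Single libraries carried some of these means, since Col23a1 read 0, 0.0141 and 6.78 RPKM in the MEF replicates and Col25a1 3.44, 0 and 0.368. Col24a1 averaged 0.613 RPKM in MEFs. Col4a5, the X-linked type IV chain, averaged 3.43 RPKM in MEFs and 1.73 in CCs. Col15a1 was above 0 in 2 donor libraries only and averaged 0.171 RPKM in CCs. Col2a1, the fibril of cartilage, and Col10a1 were at 0 in both donor cells. Col4a6 and Col9a1 were at 0 in all 60 libraries.

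Promoter sequences from RefSeq (GRCm38.p6, each window 300 nt around a start site) were at hand for 35 of the 44 genes, in 38 windows. Those of Col1a2 and Col3a1 are shown because, among the genes with a window, these had the largest differences between MEFs and CCs, and those of Col4a1 and Col4a2 because these neighbours were the chief collagens of CCs. Capitals mark, on either strand, the TATA box spelled TATAAA, the CAAT box with the letters CCAAT, or the GC box written as GGGCGG. The window of Col1a2 lies at chr6:4505368-4505667 on the + strand, that of Col3a1 at chr1:45311288-45311587 on the + strand, that of Col4a1 at chr8:11312777-11313076 on the - strand and that of Col4a2 at chr8:11312555-11312854 on the + strand.
Col1a2: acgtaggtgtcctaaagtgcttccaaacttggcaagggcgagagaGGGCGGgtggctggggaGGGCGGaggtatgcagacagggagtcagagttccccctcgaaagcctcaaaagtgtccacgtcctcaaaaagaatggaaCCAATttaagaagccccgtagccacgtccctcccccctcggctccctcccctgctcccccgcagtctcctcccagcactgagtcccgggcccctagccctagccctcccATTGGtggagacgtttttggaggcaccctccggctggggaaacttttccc
Col3a1: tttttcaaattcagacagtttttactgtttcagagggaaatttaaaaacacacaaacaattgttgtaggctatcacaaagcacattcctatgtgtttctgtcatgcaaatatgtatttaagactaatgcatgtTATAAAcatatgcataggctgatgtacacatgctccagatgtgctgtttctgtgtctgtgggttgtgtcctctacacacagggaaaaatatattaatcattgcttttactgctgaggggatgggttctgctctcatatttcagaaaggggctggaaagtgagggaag
Col4a1: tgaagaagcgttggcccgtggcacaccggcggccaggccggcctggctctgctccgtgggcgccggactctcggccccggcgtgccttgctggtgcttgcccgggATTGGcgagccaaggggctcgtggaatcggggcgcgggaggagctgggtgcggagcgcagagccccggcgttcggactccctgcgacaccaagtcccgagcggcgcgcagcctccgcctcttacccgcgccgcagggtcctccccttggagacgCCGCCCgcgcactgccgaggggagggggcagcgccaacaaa
Col4a2: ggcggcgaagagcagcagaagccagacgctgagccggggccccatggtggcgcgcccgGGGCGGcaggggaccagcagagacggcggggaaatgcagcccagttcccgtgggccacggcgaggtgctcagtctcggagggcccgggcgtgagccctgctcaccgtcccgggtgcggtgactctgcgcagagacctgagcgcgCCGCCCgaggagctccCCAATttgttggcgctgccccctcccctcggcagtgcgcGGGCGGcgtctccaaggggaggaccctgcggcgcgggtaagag

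TATAAA was found in 5 of the 38 collagen windows and in 13.6% of all 32851 windows, CCAAT in 13 of 38 and 37.4%, and GGGCGG in 23 of 38 and 35.7%. The Col3a1 window held TATAAA and no CpG, with 37.7% G and C. The Col1a2 window held CCAAT and GGGCGG and 13 CpG, where the median of all windows was 7. The Col4a1 and Col4a2 genes are transcribed away from each other, their gene models in GENCODE M21 overlap by 22 nt, and their windows share 78 nt, so the sequences above are partly reverse complements of each other. Both held CCAAT and GGGCGG and no TATAAA, and they held 37 and 33 CpG, with 74.0 and 73.7% G and C. No window was at hand for Col1a1, Col2a1, Col4a3, Col5a2, Col9a3, Col12a1, Col14a1, Col22a1 and Col26a1. These matches describe the letters in the windows and nothing more.

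**Figure D3:**
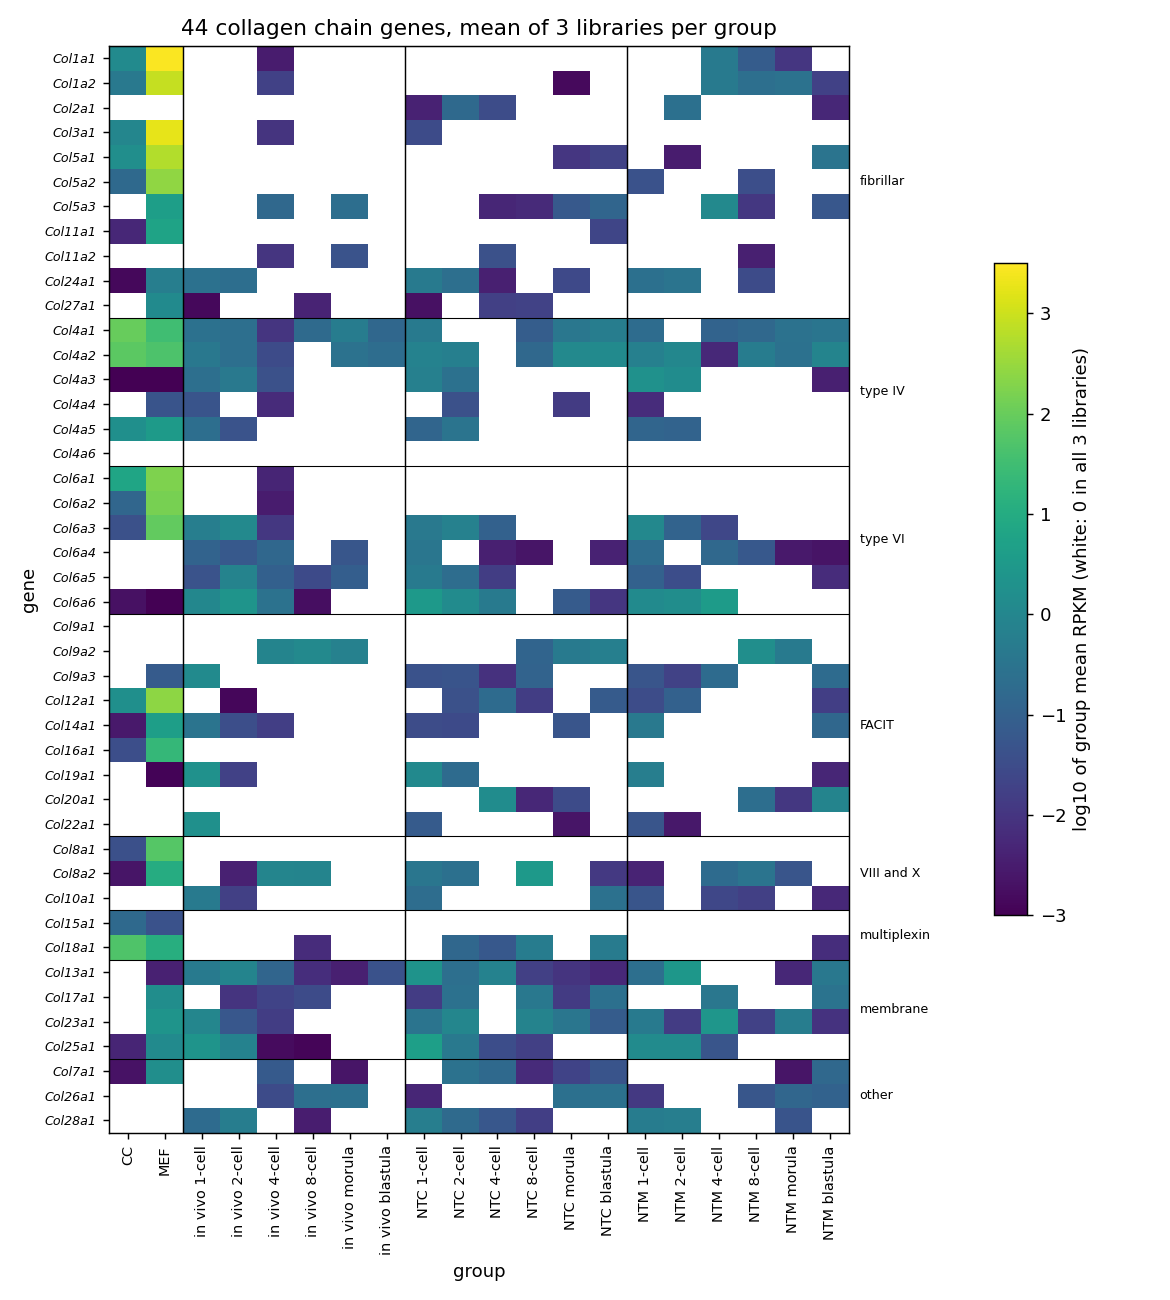
Log10 of the mean RPKM of the 44 collagen chain genes (rows, by class) in the 20 groups (columns) as a colour scale, with white where all 3 libraries are at 0. High values stand in the MEF and CC columns, and in the embryo columns values are low and many cells from the 4-cell stage on are white.

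In embryos, 39 of the 44 chains were above 0 in at least 1 library, and Col4a6, Col9a1, Col8a1, Col15a1 and Col16a1 were at 0 in all 54. Only 94 of 2376 embryo values reached 1 RPKM, and 21 chains did so in no embryo library. Of 792 combinations of a chain and an embryo group, 303 had a value above 0, of which 135 rested on 1 library, 85 on 2 and 83 on all 3. Over all genes in the table, 21.7% of such combinations rested on 1 library, 15.8% on 2 and 62.5% on all 3.

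By median, the summed collagen RPKM was higher in the early than in the later libraries, and the mitochondrial share was lower. Mitochondrial genes held 7.28 to 36.6% of all RPKM in the early libraries (median 17.3%) and 10.7 to 78.3% in the later ones (median 52.6%). The summed RPKM of the 18 libraries of 1-cell and 2-cell embryos had a median of 9.62 (3.04 to 17.8), and that of the 36 libraries from the 4-cell stage to the blastula a median of 2.84 (0.0470 to 14.4). Of these 36, 20 were below the lowest early library and 33 below the early median. With each library scaled to its RPKM outside mitochondrial genes, a scaling chosen after the data were seen, the medians were 8.50 (2.72 to 17.1) and 3.51 (0.0557 to 17.8), with 13 below the lowest early library and 33 below the early median. In the early libraries 33.1% of the collagen values were above 0, where 45.7% of all values in the table were, and in the later libraries 18.4% against 41.4%. The lowest sums were those of in vivo blastulas, with 0.0470, 0.299 and 0.840 RPKM from 5 to 48 reads per library, in the group with the fewest genes above 0. NTC blastulas read 1.41, 5.37 and 5.95 and NTM blastulas 0.806, 5.24 and 5.37 RPKM in rising order, so that 1 NTM library fell within the in vivo range.

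Col25a1, a transmembrane collagen of the nervous system, had the highest mean of all chains in in vivo and NTC 1-cell embryos, where Col4a3 led in NTM embryos, and is the embryo gene whose promoter window is shown. The window lies at chr3:130180595-130180894 on the + strand, inside the GENCODE gene model, and held CCAAT and GGGCGG and 23 CpG.
Col25a1: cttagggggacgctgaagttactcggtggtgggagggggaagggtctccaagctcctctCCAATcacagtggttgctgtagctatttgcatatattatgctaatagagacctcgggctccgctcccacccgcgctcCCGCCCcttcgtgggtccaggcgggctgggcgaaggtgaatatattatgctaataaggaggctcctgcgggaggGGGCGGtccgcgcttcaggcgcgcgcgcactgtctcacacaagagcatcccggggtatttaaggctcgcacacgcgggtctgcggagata

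Col25a1 was above 0 in all 18 early libraries and in 6 of 36 later ones. At the 1-cell stage it read 0.0222, 4.38 and 2.55 RPKM in in vivo replicates 1 to 3, 4.12, 6.03 and 4.25 in the NTC group and 2.12, 1.76 and 0.201 in the NTM group. The NTM values were all below the NTC values, where 42.1% of all genes tested did not overlap, and the in vivo values overlapped both. At the 2-cell stage it read 1.40, 0.706 and 0.238 RPKM in vivo, 0.183, 0.142 and 0.948 in the NTC group and 0.899, 0.763 and 2.46 in the NTM group. From the 4-cell stage it did not exceed 0.151 RPKM.

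Col6a6, a type VI chain, was the highest of all chains in the embryo mean and was nearly at 0 in the donor cells. At the 1-cell stage it read 0, 2.07 and 1.08 RPKM in vivo, 1.46, 3.77 and 4.29 in the NTC group and 0.385, 1.32 and 2.10 in the NTM group. At the 2-cell stage it read 0.943, 5.56 and 0.614 in vivo, 0.259, 1.89 and 1.85 in the NTC group and 0.00557, 4.64 and 0.00881 in the NTM group. Replicates thus differed by far more than the embryo types. The highest collagen value of any embryo was Col6a6 in NTM 4-cell replicate 2, at 11.1 RPKM (994 reads), where the other NTM 4-cell replicates read 0.207 and 0.

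Col13a1, a transmembrane collagen of cell junctions and of the neuromuscular synapse, read 0.624, 0.414 and 0.419 RPKM in in vivo 1-cell embryos, 3.35, 1.45 and 1.93 in the NTC group and 0.184, 0.250 and 0.276 in the NTM group. The 3 types did not overlap at this stage. Of all genes tested there, 33.5% did not overlap between NTC and in vivo, 23.1% between NTM and in vivo and 42.1% between NTM and NTC embryos. At the 2-cell stage the order was gone, with 1.99, 0 and 0.591 RPKM in vivo, 0.0919, 0.363 and 0.246 in the NTC group and 0, 3.91 and 4.47 in the NTM group. It was at 0 in CCs and reached 0.0117 RPKM in MEFs.

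Col4a3, which with Col4a4 and Col4a5 forms the network of the glomerular basement membrane, was above 0 in 17 of 18 early and 2 of 36 later libraries. At the 1-cell stage it read 0.00960, 0.376 and 0.321 RPKM in vivo, 0.793, 0.762 and 0.477 in the NTC group and 1.23, 2.34 and 2.15 in the NTM group. The 3 types did not overlap, which is to be read against the same shares of all genes. Its head-to-head neighbour Col4a4, 71 nt away, was above 0 together with it in 4 of 54 embryo libraries, where 15 held only Col4a3 and 3 only Col4a4. Col4a5 was above 0 in 13 early libraries and in none later, while its neighbour Col4a6 stayed at 0.

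Col6a3, a long chain of type VI collagen, was above 0 in all 18 early libraries, at up to 1.85 RPKM, and in 3 of 36 later ones. The same early pattern held for Col24a1 (17 of 18 early and 4 of 36 later libraries), Col19a1 (12 and 1), Col22a1 (9 and 1), Col6a5 (13 and 6), Col14a1 (12 and 4), Col28a1 (10 and 4) and Col9a3 (9 and 5). In all, 16 chains were above 0 in at least 9 of the 18 early libraries, and 8 of these averaged under 0.5 RPKM in both donor cells. The early set therefore held chains that the donor cells scarcely express. These counts are descriptions over libraries of unequal depth.

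A smaller set appeared later. Col9a2, a FACIT collagen of cartilage, was at 0 in all 18 early libraries and in the donor cells. It read 1.55, 0.369 and 0.633 RPKM in in vivo 4-cell embryos and 0 in all NTC and NTM embryos of that stage. Of all genes tested there, 43.9% did not overlap between NTC and in vivo and 41.1% between NTM and in vivo embryos. More genes exceeded 0 in in vivo 4-cell libraries (13576 to 13932) than in NTC (10824 to 11929) or NTM ones (8997 to 10930). At the 8-cell stage Col9a2 read 1.76, 1.50 and 0.167 RPKM in vivo, 0.0221, 0.347 and 0 in the NTC group and 1.22, 3.66 and 0 in the NTM group. Its mean at the 4-cell stage was too low in either comparison for the test. Col5a3 (0 early and 17 later libraries), Col26a1 (2 and 18) and Col20a1 (0 and 8) had the same course, and Col8a2 (6 and 11), Col17a1 (4 and 13), Col7a1 (2 and 13) and Col6a4 (7 and 10) were seen at both times. Of the remaining chains, Col10a1, a chain of growth plate cartilage, was above 0 in 5 early and 5 later libraries, at up to 1.47 RPKM, Col2a1 in 4 and 2, and Col11a2 and Col11a1 in 4 and 1 later libraries only.

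The basement membrane pair was the most widespread collagen of later embryos. Col4a1 was above 0 in 10 early and 27 later libraries and Col4a2 in 13 and 27, and both were above 0 in 34 of 54 embryo libraries, where 3 held only Col4a1, 6 only Col4a2 and 11 neither. Reads in the stretch where their gene models overlap cannot be assigned without strand. Col4a2 read 0.0476, 0.361 and 0.420 RPKM in in vivo morulas, 1.37, 1.24 and 0.793 in NTC and 0.357, 0.126 and 0.312 in NTM morulas, and every NTC value was above the others. Of all genes tested, 20.6% did not overlap between NTC and in vivo morulas and 23.5% between NTM and NTC morulas. Col4a2 was called in neither comparison (adjusted p 0.490 and 0.388, limma). In blastulas it read 0.00962, 0.583 and 0.0263 RPKM in vivo, 0.309, 1.83 and 1.77 in the NTC group and 1.86, 0.708 and 0.0146 in the NTM group. Col4a1 read 0.0374, 0.257 and 0.140, then 0.278, 0.539 and 0.933, then 0.711, 0.212 and 0.0780 RPKM in the same order. NTC blastulas were above in vivo blastulas for Col4a1, where 35.1% of all genes tested did not overlap, and the other blastula groups overlapped.

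**Figure D4:**
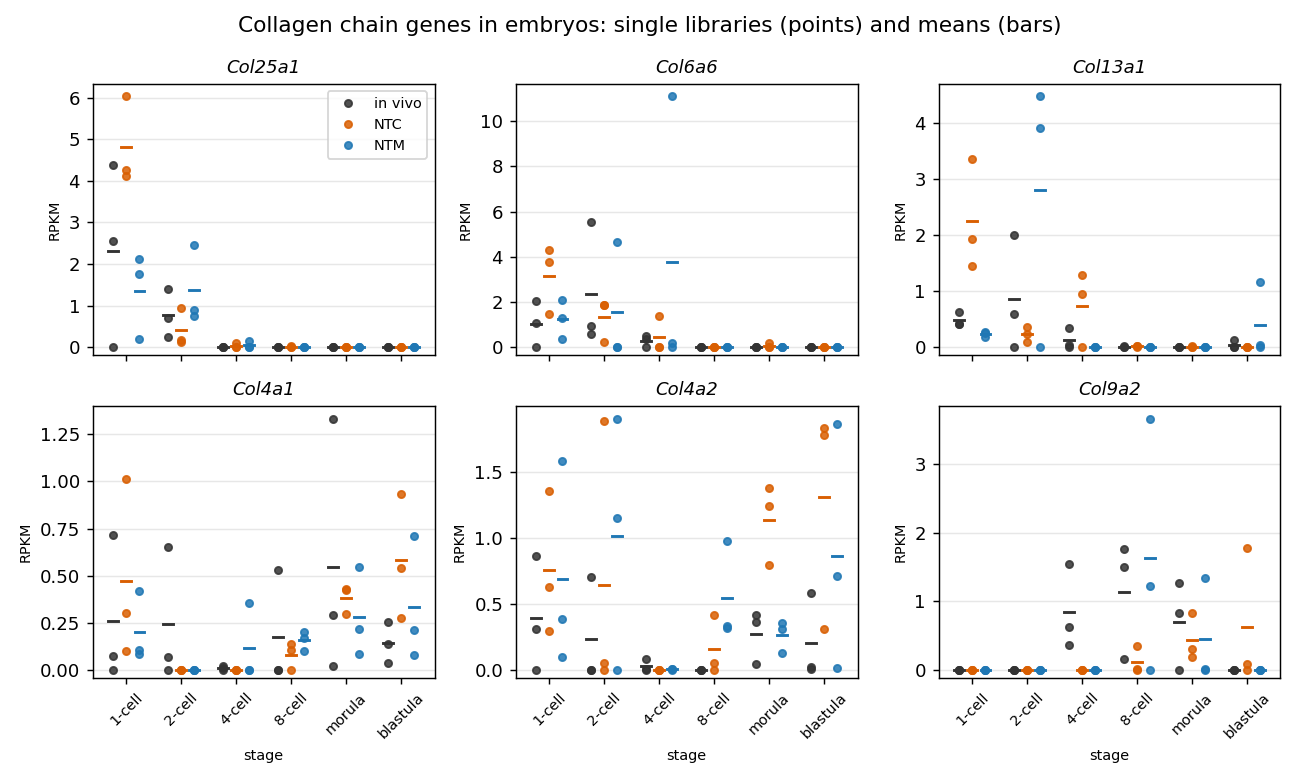
RPKM of 6 collagen chain genes at the 6 stages in in vivo, NTC and NTM embryos, with points for libraries and bars for means of 3. Col25a1 falls from up to 6.03 at the 1-cell stage to at most 0.151 from the 4-cell stage on, Col9a2 is at 0 before the 4-cell stage, and Col4a2 stays at or under 1.90 throughout.

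Single libraries carried several of the highest values. Col8a2 read 9.14 RPKM (600 reads) in NTC 8-cell replicate 1 and 0 in the other replicates. Col23a1, a transmembrane collagen, read 7.37 RPKM (736 reads) in NTM 4-cell replicate 1, with 0 and 0.236 in the others, while the 3 NTC 8-cell embryos were alike, at 0.858, 0.822 and 0.741. Col20a1 read 4.30 RPKM (172 reads) in NTC 4-cell replicate 1 and 0 in the others. Col22a1 read 4.71 RPKM (453 reads) in in vivo 1-cell replicate 1, and Col5a3 3.29 RPKM (219 reads) in NTM 4-cell replicate 2.

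To see whether NT embryos differed from in vivo embryos of the same stage, the chains with a mean of at least 0.5 RPKM were tested with limma. At the 1-cell stage 9 chains were tested in each comparison and 0 were called, while 1.16% of all genes were called for NTC and 1.28% for NTM embryos. At an unadjusted p under 0.05 there were 2 chains in each, and leaving out any 1 library gave 0 calls. Col9a3, a FACIT chain of cartilage, read 1.17, 1.74 and 1.00 RPKM in vivo, 0, 0.130 and 0 in the NTC group and 0.0367, 0.0878 and 0.0314 in the NTM group. Its log2 difference from in vivo was -1.13 (SE 0.33, adjusted p 0.117) in NTC and -1.12 (SE 0.43, adjusted p 0.285) in NTM embryos, which share the in vivo libraries. Col13a1 had a log2 difference of 1.09 (SE 0.40, adjusted p 0.167) in NTC embryos and Col4a3 one of 1.22 (SE 0.47, adjusted p 0.285) in NTM embryos.

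At later stages 0 chains were called in either NT group, and no chain had an unadjusted p under 0.05. The number tested was small. For NTC embryos it was 6 at the 2-cell stage (0.152% of all genes called), 1 at the 4-cell stage (27.8%), 2 at the 8-cell stage (1.46%), 2 at the morula stage (0.0321%) and 1 at the blastula stage (9.46%). For NTM embryos it was 7 (0.141%), 4 (21.1%), 2 (2.02%), 1 (0.168%) and 1 (0.746%). Col4a2, the only chain tested in blastulas, had a log2 difference from in vivo of 0.88 (SE 0.46, adjusted p 0.245) in NTC and 0.53 (SE 0.48, adjusted p 0.507) in NTM embryos, where the median of all genes was 0.85 and 0.86. A single fit over all 20 groups called 3 chains in each NT group, all at the 1-cell stage, where it called 9.44% of all genes for NTC and 6.98% for NTM embryos against 1.16% and 1.28% above. These were Col9a3 and Col22a1 in both, Col13a1 in NTC and Col4a3 in NTM embryos.

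Between the NT groups, 2 of 8 chains tested at the 1-cell stage were called, both lower in NTM embryos, where 19.8% of all genes were called and 14.2% were lower. The median log2 difference of all genes, NTM minus NTC, was -0.19. It was -1.35 (SE 0.36, adjusted p 0.0277) for Col13a1 and -1.40 (SE 0.44, adjusted p 0.0478) for Col25a1. The share of chains called was near that of all genes. Over the alternatives the adjusted p ran from 0.00789 to 0.0795 for Col13a1 and from 0.0107 to 0.158 for Col25a1. The first call was lost without NTC replicate 1 or 3 or NTM replicate 1 or 3, and the second without any NTC replicate or NTM replicate 3, and both were lost with the replicate number as a block and without the filter on low values. The second was also lost with a pseudocount of 0.1 and with median-ratio scaling. At the other 5 stages 0 of 13 tests were called and 0 had an unadjusted p under 0.05, where at most 0.0507% of all genes were called.

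Across successive stages, only Col25a1 was called, and only in NTC embryos between the 1-cell and 2-cell stage. It fell by 2.06 on the log2 scale (SE 0.44, adjusted p 0.0178, limma) among 7 chains tested, where 13.5% of all genes were called and 8.95% fell. The adjusted p ran from 0.000168 to 0.105 over the alternatives, and the call was lost when any 1 of the NTC 1-cell libraries was left out and without the filter on low values. In the same step 0 of 8 chains were called in in vivo embryos, where 0 of 10854 genes were called, and 0 of 7 in NTM embryos, where 9.4% were. Over all 5 steps 0 of 13 tests in in vivo and 0 of 20 in NTM embryos had even an unadjusted p under 0.05, and the counts of calls in a single fit over all groups were 3 and 4.

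From the 2-cell to the 4-cell stage, when the embryonic genome is being transcribed and maternal RNA removed, 52.2% of all genes were called in in vivo embryos, 36.6% in NTC and 26.4% in NTM embryos. The chains tested were 2, 2 and 7, and 0 were called. Col6a3 read 0.256, 1.85 and 1.25 RPKM in in vivo 2-cell embryos and 0, 0.0337 and 0 in 4-cell embryos, without overlap, as for 61.4% of all genes tested, with a log2 difference of -0.99 (SE 0.43, adjusted p 0.0917). It was called with a pseudocount of 0.1 and without in vivo 2-cell replicate 1. In NTM embryos the lowest adjusted p was 0.163, for Col13a1. At the later steps of in vivo embryos 2, 1 and 0 chains could be tested and 0 were called, where 43.7, 0.0116 and 0.801% of all genes were. In NTC embryos 2, 3 and 2 were tested (0.0564, 0 and 7.16% of all genes called), and in NTM embryos 4, 1 and 1 (0.363, 0 and 4.22%), with 0 called. Interaction terms, which compare a step of NTC or NTM embryos with that of in vivo embryos, gave 0 calls in 13 tests for NTC and 16 for NTM embryos (0 to 19.5% and 0.0335 to 18.7% of all genes), with 1 and 0 at an unadjusted p under 0.05.

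Set against their donor cells, NT embryos were low in most of the donor's leading chains at the 1-cell stage, and so were in vivo embryos. The 17 chains at 1 RPKM or more in all 3 MEF libraries summed to 0.928 to 3.06 RPKM in NTM and 1.08 to 1.89 in in vivo 1-cell embryos. For the 5 such chains of CCs the sums were 0.395 to 2.37 in NTC and 0 to 1.02 in in vivo 1-cell embryos. The contrasts below therefore set a whole 1-cell embryo against a donor cell. In NTC 1-cell embryos 9 of 12 chains tested differed from CCs, where 50% of all genes were called, 29.3% higher and 20.8% lower. Lower were Col4a1 (log2 difference -5.98, SE 0.48), Col18a1 (-5.40, SE 0.64), Col4a2 (-5.13, SE 0.66), Col12a1 (-1.42) and Col1a1 (-1.21), with adjusted p of 0.000208 to 0.0104. Higher were Col25a1 (2.51), Col6a6 (1.98), Col13a1 (1.65) and Col19a1 (1.11), the chains of the early embryo. In CCs these averaged 0 to 0.00476 RPKM, so they were tested only through their NTC values and could only be higher. Likewise Col1a1, Col12a1 and Col18a1 averaged 0 in NTC 1-cell embryos and could only be lower. The call on Col1a1 was lost without CC replicate 1 and with the block, and that on Col19a1 without NTC 1-cell replicate 1 or 3, with median-ratio scaling and with the block. The block also ended the call on Col12a1. The mean of CCs was 205 times that of NTC 1-cell embryos for Col4a1 and 95.8 times for Col4a2. Col18a1 was at 0 in all 3 NTC 1-cell embryos, and was at least 1193-fold higher in CCs, taking 3 reads in the shallowest library as the limit.

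In NTC blastulas 3 of 8 chains differed from CCs (24.2% of all genes, 14.3% lower), and these were Col4a1, Col4a2 and Col18a1, with log2 differences of -5.85, -4.78 and -4.94. Col18a1 was above 0 in some NTC embryos past the 1-cell stage, with 0.302, 0.0935 and 1.20 RPKM at the 8-cell stage and 0.0108, 0 and 1.55 in blastulas. Over all embryos it was above 0 in 10 of 54 libraries.

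In NTM 1-cell embryos 20 of 26 chains differed from MEFs, where 55.2% of all genes were called, 25.2% higher and 29.9% lower. Of these chains, 19 were lower and Col4a3 was higher (log2 difference 1.52). Col1a1, Col1a2, Col3a1, Col5a1, Col6a1 and Col6a2 were at 0 in all 3 libraries. On the same limit of 3 reads they were at least 87302, 49066, 84322, 22985, 3668 and 5756-fold higher in MEFs. Col6a3 read 1.05, 1.55 and 0.684 RPKM, where the MEF mean was 79.3 times as high. It was also present without a MEF nucleus, with means of 0.594 RPKM in in vivo and 0.424 in NTC 1-cell embryos. The log2 difference of NTM from in vivo 1-cell embryos was 0.38 (SE 0.46, adjusted p 0.706, limma). Col25a1 had a ratio of means of 0.935 with 1 MEF library at 3.44. In NTM blastulas 18 of 24 chains were called, all lower than in MEFs, where 30.8% of all genes were called and 19.8% were lower. A mean of 0.5 RPKM or more was found for 25 chains in MEFs, 7 in NTM 1-cell embryos and 2 in NTM blastulas. Most chains thus entered these tests through MEFs, and those near 0 in embryos could only be lower. The calls on Col5a3 were lost without 5 of the 6 libraries in turn at both stages, and so was that on Col27a1 at the 1-cell stage. At the blastula stage the call on Col4a5 was lost without NTM replicate 2 and that on Col8a2 without any NTM replicate.

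**Figure D5:**
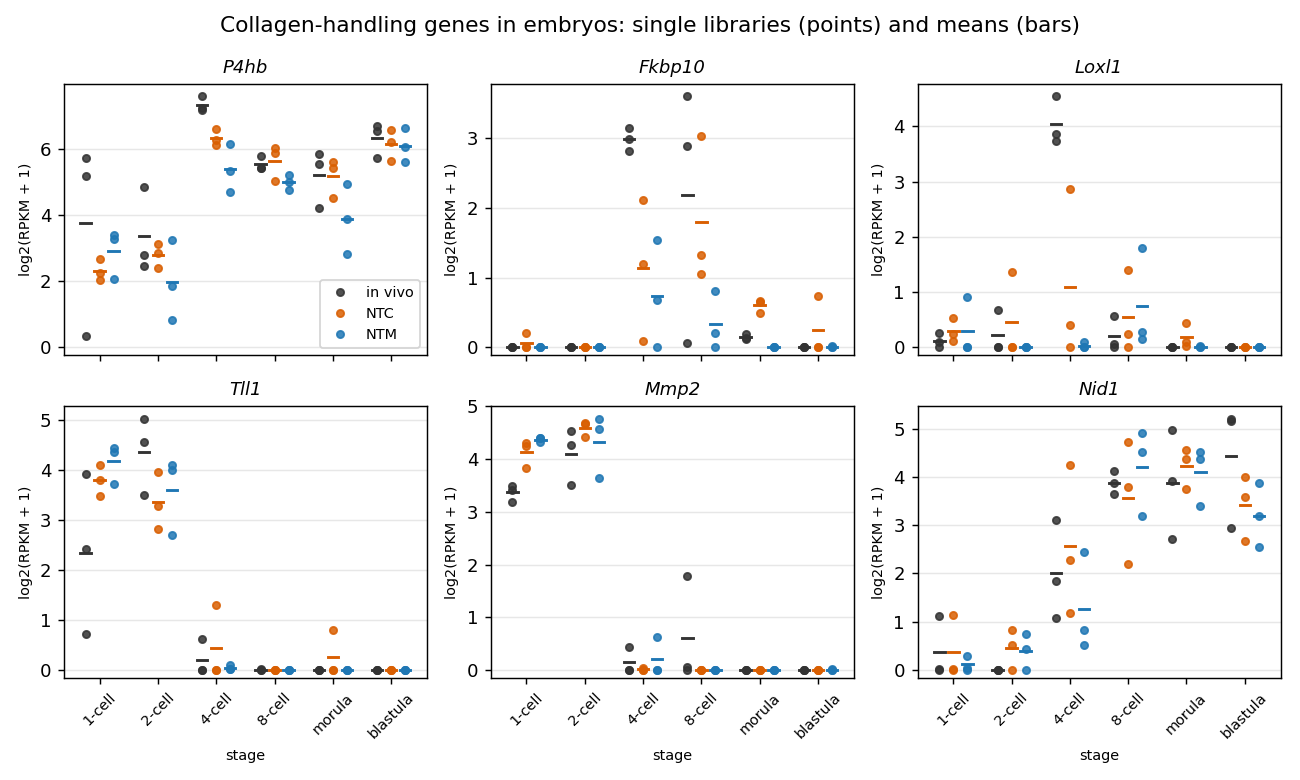
Log2(RPKM + 1) of 6 genes that modify, crosslink, process, degrade or bind collagen, at the 6 stages in in vivo, NTC and NTM embryos, with points for libraries and bars for means of 3. P4hb and Loxl1 have their highest values in in vivo 4-cell embryos, Tll1 and Mmp2 fall after the 2-cell stage, and Nid1 of in vivo embryos is at 0 at the 2-cell stage and at 1.12 RPKM or more in 4-cell embryos.

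The genes that handle collagen were followed in 6 lists with 78 members in the table. Between MEFs and CCs 64 could be tested, and 15 were higher and 3 lower in MEFs, where 3.99% and 2.3% of all genes were. The higher ones included Timp2, an inhibitor of matrix proteases (6.81), Loxl1, a lysyl oxidase that crosslinks collagen (6.04), Ctsk, a collagen-cleaving cathepsin (6.04), Ddr2, a receptor for fibrillar collagen (5.60), Mmp2, a gelatinase (5.54), Adamts2, which trims fibrillar procollagen (5.53), and the laminin chain Lama4 (5.17). Lower were Plod2, a lysyl hydroxylase (-4.53), the receptor subunit Itga2 (-4.37) and the protease inhibitor Timp1 (14.3 against 84.4 RPKM), which was named after its values were seen. By list, called higher and lower were 2 and 1 of 18 for modification, 1 and 0 of 12 for export and processing, 3 and 0 of 8 for crosslinking, 3 and 1 of 7 for receptors, 2 and 0 of 11 for basement membrane partners and 4 and 1 of 8 for degradation.

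At the 2-cell to 4-cell step, where few chains could be tested, the handling genes could be. In in vivo embryos 11 of 37 rose and 8 fell, where 31.4% and 20.8% of all genes did. P4hb, a disulfide isomerase that is also the shared subunit of prolyl hydroxylase, read 4.47, 5.86 and 27.6 RPKM in 2-cell and 143, 194 and 149 in 4-cell embryos, a log2 rise of 3.98 (SE 0.64, adjusted p 0.00167). Loxl1 rose from 0.595, 0 and 0 to 22.3, 12.4 and 13.5 RPKM (3.82, SE 0.40), and Fkbp10, a prolyl isomerase that attends procollagen, from 0 in all to 6.92, 7.87 and 6.01 (2.98, SE 0.33). Tll1, a procollagen C-proteinase, fell from 10.4, 22.7 and 31.7 to 0.540, 0 and 0 RPKM (-4.16, SE 0.49), and Mmp2 from 22.1, 10.4 and 18.2 to 0, 0.353 and 0 (-3.96, SE 0.40). The stages did not overlap for these 5 genes, nor for 61.4% of all genes tested, and the shares called were near those of all genes for falls and for rises.

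The same step gave 3 higher and 5 lower of 34 in NTC embryos (16.4% and 20.1% of all genes) and 1 higher and 3 lower of 35 in NTM embryos (12.1% and 14.3%). P4hb rose and Tll1 and Mmp2 fell in both, with log2 differences of 3.53, -2.92 and -4.57 in the NTC group and 3.42, -3.56 and -4.12 in the NTM group. At the 4-cell stage itself, NTC embryos had 1 higher and 7 lower of 28 against in vivo embryos (7.4% and 20.4% of all genes), and NTM embryos 2 higher and 7 lower of 31 (3.33% and 17.8%). Loxl1 read 6.31, 0 and 0.321 RPKM in NTC and 0, 0 and 0.0650 in NTM 4-cell embryos, below all in vivo values. Of all genes tested, 43.9% and 41.1% did not overlap in these comparisons. The log2 differences of Loxl1 were -2.96 (SE 0.74, adjusted p 0.0173, limma) and -4.02 (SE 0.50, adjusted p 0.00177). P4ha1, the catalytic subunit of prolyl hydroxylase, was also called lower in both (-2.37 and -2.66), as were Fkbp10 (-1.85 and -2.24) and Loxl2 (-1.85 and -1.85). Mitochondrial genes held 10.7 to 15.9% of all RPKM in in vivo 4-cell embryos, 51.8 to 55.5% in the NTC group and 48.9 to 59.3% in the NTM group, and the median log2 difference of all genes was -0.39 and -0.69. With libraries scaled to their RPKM outside mitochondrial genes, the 7 lower calls became 2 in NTC and 1 in NTM embryos (12.6% and 9.64% of all genes lower), and with median-ratio scaling 3 and 1. P4ha1 and Fkbp10 then lost their calls in both groups under both scalings. Loxl2 kept its call in NTC embryos and lost it in NTM embryos under both. Loxl1 kept its call in NTM embryos, at -3.51 (adjusted p 0.00523) outside mitochondrial genes, and in NTC embryos it was called with median-ratio scaling (-2.59, adjusted p 0.0390) but not outside mitochondrial genes (-2.36, adjusted p 0.0563). The NT groups were compared with the same in vivo libraries.

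At the 1-cell stage the lists held 1 call against in vivo embryos, the peroxidase Pxdn, which crosslinks type IV collagen and was higher in NTC embryos (2.91, adjusted p 0.0234, where 0.988% of all genes were higher), among 31 tested, and 0 among 30 in NTM embryos. In blastulas 0 of 25 were called in either NT group. Against CCs, 7 were higher and 29 lower of 58 in NTC 1-cell embryos, where 29.3% and 20.8% of all genes were. Against MEFs, 3 were higher and 48 lower of 66 in NTM 1-cell embryos, where 25.2% and 29.9% of all genes were. Nid1, a linker of laminin and type IV collagen, stood at 6.68, 35.8 and 34.7 RPKM in in vivo blastulas, far above Col4a1 and Col4a2 in the same libraries.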

How the data were processed

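RNA was measured in 54 single embryos and in CCs and MEFs, 3 libraries in each of 20 groups. The authors deposited RPKM values for 27238 genes in 60 libraries. The submitters' processing notes name Bowtie 0.12.2 and the build mm8, while the study's methods name TopHat and HTSeq. Coordinates here are those of GENCODE M21 on GRCm38 and were not used for counting. Whole reads were recovered at M21 exon lengths (tolerance 0.02 of a read) for 36 collagen genes and from the steps of the values for 8, and served for depth and limits only. Limits and reads cover counting error only, since no molecular identifiers were used.

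Groups were compared with limma 3.58.1 (R 4.3.3, trend option, two-sided) on log2(RPKM + 1), in fits of the 3 libraries of each group, for genes with a mean of at least 0.5 RPKM. Adjustment was by Benjamini-Hochberg over all genes tested. A gene was called at an adjusted p under 0.05 and a log2 difference of at least 1. Fold changes on this scale understate the change of low genes. A gene near 0 in 1 group passed the filter only through the other group, which fixed the direction of its difference. The alternatives were a pseudocount of 0.1, no filter, median-ratio scaling, 1 fit over all 20 groups, the replicate number as a block, and leaving out each library. Scaling each library to its summed RPKM without mitochondrial genes was added after the data were seen. The p-values measure the spread between these libraries, which are not tied to experiments. The code was tested on simulated data.

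Values per library are given for the 4 highest chains of each donor cell, the 6 highest in embryos and any called in 2 or more comparisons of NT with in vivo embryos or of successive stages (none), and for the handling lists the 3 called genes with the largest change were eligible for naming. Other genes were named after their values were seen. The members and the lists were chosen with earlier results of these data known. RPKM of different genes depend on the exon lengths used. The deposited lengths are unions of exons (12426 nt for Col1a2 and 6563 nt for Col1a1), and whether counting used strand is not given in the sources used here.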

Additional observations from a re-analysis of the deposited data

Results flagged for a closer look

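For Col13a1, every NTC 1-cell embryo lay above every in vivo 1-cell embryo, and every NTM 1-cell embryo lay below. Of all genes tested, 33.5% did not overlap between NTC and in vivo, 23.1% between NTM and in vivo and 42.1% between NTM and NTC 1-cell embryos. The values were 3.35, 1.45 and 1.93 RPKM in NTC, 0.624, 0.414 and 0.419 in in vivo and 0.184, 0.250 and 0.276 in NTM embryos. The difference between the NT groups was -1.35 on the log2 scale, NTM minus NTC (SE 0.36, adjusted p 0.0277, limma), where 14.2% of all genes were called lower. Over the alternatives its adjusted p ran from 0.00789 to 0.0795, and the call was lost with several single libraries left out, with the replicate block and without the filter. The gene was flagged for this same separation, so the p-value is not separate support for it. NTM and in vivo embryos were not tested for this gene, because its mean was under 0.5 RPKM in those libraries. The order did not recur at the 2-cell stage, where NTM embryos read 0, 3.91 and 4.47 RPKM. What accounts for it was not tested.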

How the results depend on the processing

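Between MEFs and CCs, 11 calls became 20 in a single fit over all 20 groups, and were 10 to 11 without 1 library. Against in vivo embryos, the single fit gave 3 calls for NTC and 3 for NTM embryos in place of 0, and the fits without 1 library 0 to 0. Between NTM and NTC embryos 2 calls became 1 with a pseudocount of 0.1, 0 without a filter, 1 with median-ratio scaling and 0 with the replicate block, and were 0 to 2 without 1 library. For in vivo steps, 0 calls became 1 with a pseudocount of 0.1 and 3 in the single fit, and were 0 to 1 without 1 library. For NTC steps, 1 call became 0 without a filter and 2 in the single fit, and was 0 to 1 without 1 library. For NTM steps, 0 became 4 in the single fit and 0 to 2 without 1 library, the 2 being Col13a1 in both steps that adjoin the 2-cell stage when NTM 2-cell replicate 1 was left out. Against CCs, 12 calls became 20 in the single fit and 9 with the block, and were 11 to 14 without 1 library. Against MEFs, 38 became 44 and 35, and were 35 to 39. Comparisons of steps gave 0 for NTC, and for NTM embryos 1 in the single fit (Col6a3). The single fit takes its spread from all groups, and the cause of its larger counts was not tested.

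Same-numbered libraries showed low correlations, though 3 libraries per group cannot exclude a pairing by replicate number. In 0 of 38 comparisons did every pair of same-numbered libraries deviate together with a correlation over 0.1 (range -0.205 to 0.119), and in 2 of 38 did every library correlate best with its own number. The replicate block gave 11 calls between MEFs and CCs. Scaling to the RPKM outside mitochondrial genes, chosen after the data were seen, gave 11 calls there, 0 for NTC and NTM against in vivo embryos, 2 between NTM and NTC embryos, 12 against CCs and 36 against MEFs. Of 34 results on named genes 0 reversed in any alternative, where 10 values lost their call under another setting and 14 with 1 library left out. Median-ratio scaling moved the median log2 difference of all genes by -0.17 for MEFs against CCs, by -0.51 and -0.54 for NTC and NTM against in vivo blastulas, and at most by 0.89, for the in vivo step from the 4-cell to the 8-cell stage. At 1 RPKM or more in a library, 9 of the 24 chains seen in CCs, 25 of 32 in MEFs and 0 of 3 in in vivo blastulas remained.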

Other observations

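A group of 7 chains high in MEFs and near 0 in most embryos (Col1a1, Col1a2, Col3a1, Col5a1, Col5a2, Col6a1 and Col6a2) was formed after their values were seen. It leaves out Col12a1, whose MEF mean of 249.6 RPKM is above those of Col6a1 (177) and Col6a2 (146). Col12a1 was above 0 in 7 early and 5 later embryo libraries, and its highest value, 0.549 RPKM, was in NTC 4-cell replicate 2. The counts that follow hold for the 7 chains only and would differ with Col12a1. Any of the 7 was above 0 in 3 of 18 in vivo, 3 of 18 NTC and 10 of 18 NTM libraries, and at 0.1 RPKM or more in 0, 0 and 5. NTM 4-cell replicate 1 read 1.38 RPKM of Col1a1 (158 reads) and 1.43 of Col1a2 (309 reads), with Col3a1 at 0. NTM 8-cell replicate 3 read 0.238 and 0.713 RPKM of the same genes. NTM morula replicate 1 read 0.855 RPKM of Col1a2 and NTM blastula replicate 1 read 0.971 of Col5a1. NTM 1-cell replicate 1 read 0.133 RPKM of Col5a2. The fibroblast markers summed to 19.5, 14.6, 1.42, 15.0 and 0.904 RPKM in these libraries in the order given, where the highest sum of any embryo library was 21.2, in an NTC 8-cell embryo. No test was made, and the source of these reads was not tested.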
